A study of Mus musculus with 14 samples.

Results

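The MHC class II genes were followed in colon RNA sequencing of mice that lack the microRNAs miR-29a and miR-29b-1. They were chosen by name as 9 genes, of 54378 genes present in both deposited count tables: the class II chain genes *H2-Aa*, *H2-Ab1* and *H2-Eb1*, the peptide loading genes *H2-DMa*, *H2-DMb1* and *H2-DMb2*, the invariant chain gene *Cd74*, the transactivator gene *Ciita* and the protease gene *Ctss*. The choice used 1 measured pattern, the level of *H2-Eb1* after dextran sulfate sodium (DSS), which was higher in every knockout mouse than in every wild-type mouse. The difference between genotypes after DSS is therefore given below as a description and was not tested. Earlier results of these data were also known when the genes and lists were chosen, and the p-values below do not take this into account. All 9 genes were found in both tables and passed the filter on low counts in each comparison. On mouse build GRCm38, *H2-DMa*, *H2-DMb2*, *H2-DMb1*, *H2-Ab1*, *H2-Aa* and *H2-Eb1* lie in this order on chromosome 17 between bases 34119541 and 34316674, *Ciita* at chr16:10480059-10528418 and *Ctss* at chr3:95526786-95556403.

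The mice were C57BL/6N, wild-type (WT) or miR-29ab1-/- (KO), a germline deletion, and the study used littermates of 8 to 12 weeks unless it stated otherwise. In a first experiment 4 WT and 4 KO mice were untreated. In a second, 3 WT and 3 KO mice were sampled after 3 days on 3.5% DSS, a polymer in the drinking water that injures the colon epithelium and causes colitis. The study names the tissue as colon while the labels name crypts of the small intestine, and each sample is taken here as 1 mouse.

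MHC class II molecules are pairs of an alpha and a beta chain that present peptides to CD4+ T cells. The chains assemble with the invariant chain in the endoplasmic reticulum, cathepsin S trims the invariant chain to a short peptide called CLIP, and the H2-DM molecule exchanges CLIP for peptides of the endosome. B cells, dendritic cells and macrophages make class II constantly, and gut epithelial cells can make it under interferon gamma, which acts through the transactivator CIITA.

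CIITA binds no DNA itself. It is recruited by RFX, CREB and NF-Y, which sit on the X, X2 and Y boxes shared by class II promoters. RefSeq promoters on GRCm38.p6, windows of 300 bases around the start of transcription, were at hand for 6 of the 9 genes. The 4 stretches of 100 bases below are shown because they hold the Y box spelled TGATTGG, which reads CCAATCA on the other strand. Capitals mark this Y box and, where present, an X box spelled CTNGNAACT, which reads AGTTNCNAG on the other strand. Both spellings were chosen after these promoters had been seen, and the motifs do not overlap each other in any of them.
H2-Aa: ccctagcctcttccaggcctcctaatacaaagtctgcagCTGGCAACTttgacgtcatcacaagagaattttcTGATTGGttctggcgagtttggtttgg
H2-Eb1: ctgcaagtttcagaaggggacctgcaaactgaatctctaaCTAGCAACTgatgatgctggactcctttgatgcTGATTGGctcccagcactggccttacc
H2-DMb1: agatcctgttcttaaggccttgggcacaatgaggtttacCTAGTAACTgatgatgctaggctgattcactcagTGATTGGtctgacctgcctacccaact
H2-DMb2: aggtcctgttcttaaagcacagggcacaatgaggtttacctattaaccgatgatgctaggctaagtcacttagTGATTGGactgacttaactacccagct
These lie at chr17:34287847-34287946 on the minus strand for *H2-Aa*, and on the plus strand at chr17:34305733-34305832 for *H2-Eb1*, chr17:34153055-34153154 for *H2-DMb1* and chr17:34145084-34145183 for *H2-DMb2*. The X and Y boxes stand 25 bases apart in *H2-Aa* and *H2-DMb1* and 24 bases apart in *H2-Eb1*, and the spelled X box was not found in *H2-DMb2*. Of 32851 RefSeq promoters in the table, 7.82% hold the Y box letters, 4.1% the X box letters and 0.35% both. Neither spelling was found in the 2 *H2-DMa* promoters or in that of *Ctss*.

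The deleted microRNAs share a seed (bases 2 to 8, in capitals), which is why both are shown.
miR-29a-3p: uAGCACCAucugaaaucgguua
miR-29b-3p: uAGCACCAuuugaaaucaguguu
A transcript paired to all 7 seed bases carries TGGTGCT. Of 21020 genes with a 3′ UTR in GENCODE vM21, 13.8% hold these letters at least once. Of the class II genes, 1 of 9 did: *Ciita*, at bases 2310 to 2316 of its longest 3′ UTR of 2676 bases, within agcctctgtgtTGGTGCTgggaagagaact. The 3′ UTRs of *H2-Aa*, *H2-Ab1* and *H2-Eb1* have 300, 311 and 787 bases at the longest and held none.

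Reads on genes totalled 14231157 to 18185020 per mouse without DSS and 20076719 to 23153149 after DSS. Levels are given in CPM, a gene's count over the total count of its library after scaling by TMM, which sets the libraries of a table on a common level, and 3 reads correspond to 0.165 to 0.215 CPM without DSS and to 0.125 to 0.159 CPM after DSS, counting error only. The deleted microRNAs are too short for these libraries, and *Mir29a* and *Mir29b-1* had 0 or 1 read in all mice. The neighbouring gene *Lncpint*, which lies beside the deleted locus, separated the genotypes, at 0.251 to 1.28 CPM in the 7 WT mice and 29.4 to 200.5 CPM in the 7 KO mice. Epithelial markers were high (median of 11 genes 720 CPM without DSS and 1153 CPM after DSS) and smooth muscle markers low (0.154 and 0.11 CPM), and colon markers exceeded those of small intestine (116 against 1.79 CPM without DSS).

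Compared per kilobase of the gene's exons without DSS, *Ctss* and *Cd74* had the highest levels, with medians over 8 mice of 94.7 and 59.9 CPM per kilobase. Their ranges overlapped, at 77.5 to 117 and 28.6 to 266. Then came *H2-Ab1* (11.9), *H2-Eb1* (10.3), *H2-DMb1* (6.29), *H2-Aa* (5.00), *H2-DMa* (2.76), *H2-DMb2* (1.57) and *Ciita* (0.586 CPM per kilobase). Each gene overlapped in range with its neighbours in this order. After DSS the order of medians was *Cd74* (362), *Ctss* (209), *H2-Ab1* (65.2), *H2-Aa* (56.1), *H2-Eb1* (48.4), *H2-DMb1* (15.7), *H2-DMa* (12.2), *Ciita* (1.21) and *H2-DMb2* (0.332), over 6 mice. The ranges did not overlap between *Ctss* and *H2-Ab1* (192 to 249 and 40.8 to 108), between *H2-Eb1* and *H2-DMb1*, or between *H2-DMa* and *Ciita*, while the other neighbours overlapped. *Ciita*, which encodes a regulator, was thus low in both experiments. *H2-Ea-ps*, the mouse H2-Ea locus, had 14 reads in all over the 8 untreated mice. C57BL/6 mice are known to make no I-E alpha chain because of a promoter deletion, so *H2-Eb1* is transcribed there without its usual partner.

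Whether the deletion changes class II expression in the untreated colon was asked with 4 mice per genotype. All 9 genes were estimated higher in KO mice, but none of them passed at an adjusted p under 0.05, and for every gene the genotypes overlapped. The fitted level in KO mice was 2.44 to 3.04 times that in WT mice for the chain genes, 2.64 times for *Cd74* and 2.39 times for *Ciita*, against 1.05 times for *Ctss*. These values rest in part on KO mouse 4: without it the log2 fold change of *H2-Aa* went from 1.61 to 0.80, the median of the 9 genes from 1.26 to 0.68, and *Ctss* to -0.01.

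*H2-Eb1*, the I-E beta chain, had 21.8, 8.52, 12 and 18.4 CPM in WT mice 1 to 4 and 23.7, 6.81, 41.6 and 92.2 CPM in KO mice 1 to 4. KO mouse 2 had the lowest level of all 8 mice, and the other 3 KO mice lay above every WT mouse. The log2 fold change was 1.43 (SE 0.73, unadjusted p = 0.0876, adjusted p = 0.9995, edgeR quasi-likelihood test). *H2-Ab1*, the I-A beta chain, had 33.4, 21.6, 26.5 and 27.7 CPM in WT mice and 46.0, 12.6, 74.6 and 133 CPM in KO mice, with a log2 fold change of 1.28 (SE 0.61). *H2-Aa*, its alpha partner, had 21.8, 7.98, 10.3 and 16.2 CPM in WT mice and 26.4, 3.53, 43.5 and 98.5 CPM in KO mice, with a log2 fold change of 1.61 (SE 0.86). The same mice stood out each time: KO mouse 2 below all WT mice, and KO mouse 4 highest.

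*Ciita* had 4.01, 5.42, 5.76 and 4.06 CPM in WT mice and 9.85, 5.29, 8.62 and 22.3 CPM in KO mice. KO mouse 2 lay among the WT mice and the other 3 KO mice above them. The log2 fold change was 1.26 (SE 0.40, unadjusted p = 0.0108, adjusted p = 0.9995, edgeR). *Cd74* had 108, 78.4, 93.3 and 71.2 CPM in WT mice and 200.2, 48.0, 229 and 447 CPM in KO mice, with a log2 fold change of 1.40 (SE 0.58, unadjusted p = 0.0440). Here too KO mouse 2 was the lowest of the 8.

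*H2-DMa* and *H2-DMb1*, the chains of H2-DM, had log2 fold changes of 0.84 (SE 0.43) and 1.06 (SE 0.47), with KO mice at 5.05 to 22.2 CPM and 6.51 to 31.3 CPM against 4.84 to 9.89 CPM and 6.55 to 13.9 CPM in WT mice. *H2-DMb2*, a second beta chain gene, ranged from 0.612 to 4.17 CPM in WT against 0.697 to 5.53 CPM in KO mice (log2 fold change 0.49, SE 0.69). Its highest KO mouse was mouse 1, not mouse 4. The longest protein-coding transcripts of *H2-DMb1* and *H2-DMb2* are 87.7% identical over 1144 aligned bases with a longest shared run of 221 bases, so reads may be divided between them with some uncertainty. In the table without DSS, the gene model of *H2-DMa* also overlaps *Brd2*. *Ctss*, cathepsin S, ranged from 105 to 159 CPM in WT against 123 to 156 CPM in KO mice, a log2 fold change of 0.07 (SE 0.14).

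**Figure D1:**
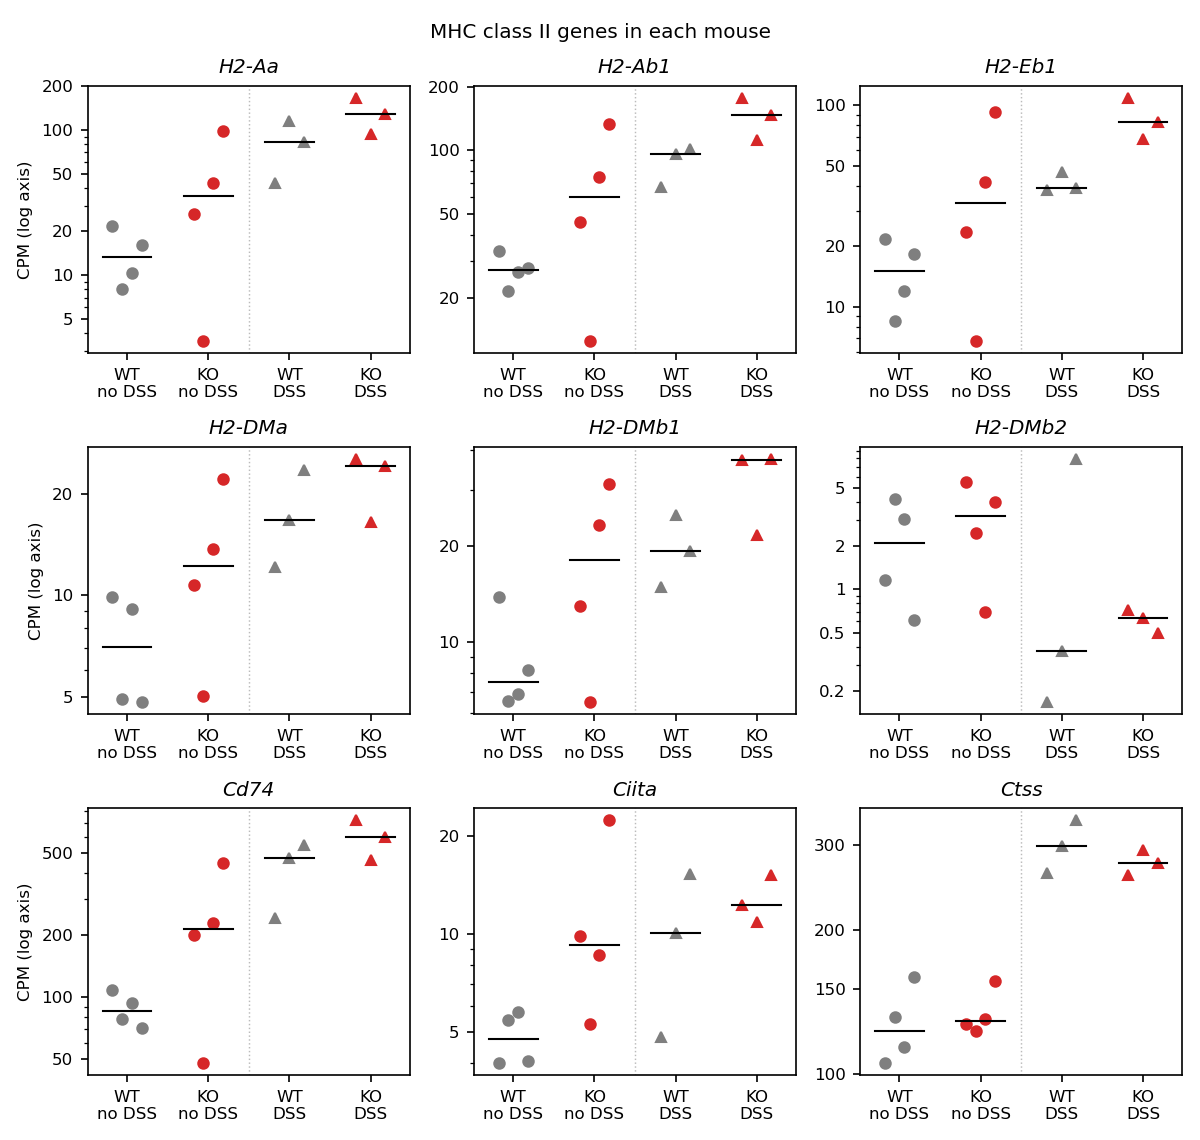
Level of each MHC class II gene in every mouse, in CPM on a log axis, for WT (grey) and KO (red) mice without DSS (circles, 4 per genotype) and after DSS (triangles, 3 per genotype), with black lines at group medians. Levels left and right of the dotted line come from separately made tables. Without DSS, 1 KO mouse lies at or below the WT mice in the chain genes, and after DSS *H2-Eb1* and *H2-Ab1* do not overlap between genotypes.

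By edgeR, 2 of the 9 genes (*Ciita* and *Cd74*) had an unadjusted p under 0.05, both higher in KO mice, where 2.09% of the 15441 genes tested did in that direction and 3.67% in either. After adjustment 0 of 9 passed, where 3 genes of all tested (0.0194%) did. The fold change was above 0 for 9 of 9 genes, against 49.5% of all genes, and its median was 1.26 on the log2 scale, against -0.00 over all genes, of which 95% lay under 0.50. The number with p under 0.05 depended on single mice. It was 7 without KO mouse 2, 1 (*Ciita*) without WT mouse 2, 3 or 4 or KO mouse 1, 3 or 4, and 2 without WT mouse 1. Over all genes tested, in either direction, 552 of 15739 had such a p without KO mouse 2. With any other mouse left out, this ranged from 479 of 15617 (WT mouse 3) to 692 of 15777 (KO mouse 3). Without KO mouse 4, *H2-Eb1* had a log2 fold change of 0.66, *Cd74* of 0.86 and *Ciita* of 0.72.

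All of the genes but *H2-DMb2* and *Ctss*, 7 genes, varied together over the 8 untreated mice, with Pearson's r between 0.73 and 0.99 (median 0.93) over 21 pairs. *Ctss* correlated less with these 7 (r 0.07 to 0.44, median 0.39), and *H2-DMb2* gave r of -0.10 to 0.46 (median 0.01). After DSS the 7 gave r of 0.46 to 0.94 (median 0.86) over 6 mice. These are descriptions over mice of 1 table, with no p, and with the division into 7 and 2 made after the values were seen.

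The levels of immune cell markers differed between the same mice, so the class II level, taken as the mean log2 CPM of *H2-Aa*, *H2-Ab1*, *H2-Eb1* and *Cd74*, was set beside them. In bulk tissue, fewer cells of a type and less RNA per cell cannot be told apart. The class II level was 5.18, 4.22, 4.57 and 4.80 in WT mice 1 to 4 and 5.62, 3.48, 6.22 and 7.25 in KO mice. The mean log2 CPM of 9 T cell markers (*Cd3d*, *Cd3e*, *Cd3g*, *Trac* and others) was 3.68, 1.65, 2.53 and 1.70 in WT mice and 1.86, 1.60, 2.93 and 4.12 in KO mice. KO mouse 4 was highest and KO mouse 2 lowest in both, while WT mouse 1 stood next to KO mouse 4 in T cell markers but below 3 KO mice in class II level.

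Over the 8 untreated mice, the class II level and the T cell markers had Pearson's r = 0.75 (two-sided exact permutation p = 0.0311, adjusted over 6 relations 0.0934) and Spearman's rho = 0.83 (p = 0.0154, adjusted 0.0923). Without WT mouse 1 and KO mouse 4, the farthest from the median of the T cell markers, r was 0.67 over 6 mice. *Ciita* gave r = 0.80 (exact permutation p = 0.0158, adjusted 0.0934) and rho = 0.60 (p = 0.132), and r fell to 0.43 without KO mice 1 and 4, so this relation rests on those mice. For markers of macrophages and monocytes r was 0.67 and rho 0.67 (exact permutation p = 0.0712 and 0.0831), and for dendritic cells 0.68 and 0.60 (p = 0.0623 and 0.132). B cell markers gave r = 0.30 and rho = -0.21 (p = 0.469 and 0.619), and epithelial markers r = -0.29 and rho = -0.45 (p = 0.485 and 0.267). Without the 2 mice farthest from the median of each measure, r was 0.42 for macrophages and monocytes, 0.48 for dendritic cells (both without WT mouse 1 and KO mouse 4), -0.83 for B cells (without WT mouse 2 and KO mouse 4) and -0.41 for epithelial markers (without WT mouse 1 and KO mouse 1). The B cell relation thus changed sign with those mice. None of the 6 relations passed after adjustment. With the mean of each genotype subtracted, r was 0.78 for T cell markers and 0.78 for *Ciita*. After DSS the class II level holds *H2-Eb1*, whose values chose the genes, so r is a description there, with no test. Over 6 mice it was 0.75 for *Ciita* and 0.63 for T cell markers, and 0.73 and 0.30 with the mean of each genotype subtracted. Macrophage and monocyte markers gave 0.55, dendritic cell markers 0.52, epithelial markers 0.50 and B cell markers -0.09. With genotype means subtracted these were 0.44, 0.16, 0.45 and 0.22. Before this subtraction, epithelial and B cell markers thus had the other sign than without DSS. After it, only epithelial markers did, as r without DSS was then -0.24 for them and 0.29 for B cell markers. Epithelial r before the subtraction was -0.44 without WT mice 1 and 3.

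**Figure D2:**
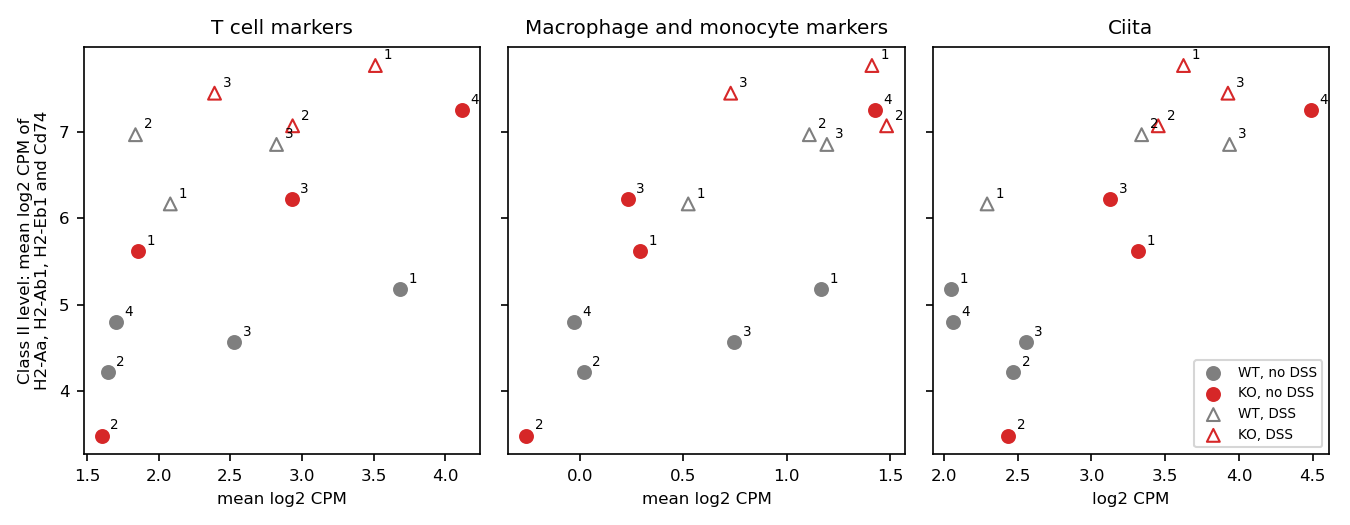
Class II level of each mouse (mean log2 CPM of *H2-Aa*, *H2-Ab1*, *H2-Eb1* and *Cd74*) against the mean log2 CPM of T cell markers, of macrophage and monocyte markers, and the log2 CPM of *Ciita*, for WT (grey) and KO (red) mice without DSS (filled circles) and after DSS (open triangles), with mouse numbers beside the points. KO mouse 4 without DSS is high on all 4 measures, and the DSS mice lie above most untreated mice in class II level.

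Summed over the lists, T cell markers reached 42.9 to 164 CPM in WT and 38.5 to 196 CPM in KO mice without DSS, with none of 9 at 0. The 12 B cell markers summed to 8.74 to 16.0 CPM and 4.94 to 31.0 CPM, with at most 1 at 0 in a mouse. The 10 dendritic cell markers summed to 3.57 to 13.5 CPM and 3.40 to 19.3 CPM, with up to 6 at 0, and the 14 macrophage and monocyte markers to 70.8 to 84.8 CPM and 69.1 to 89.1 CPM. Most of the last sum is *Cd14* (mean 55.0 CPM in WT and 58.4 CPM in KO mice), while *Csf1r* had 1.01 and 1.29 CPM and *Adgre1* 0.252 and 0.204 CPM. The fold change was above 0 for 8 of 9 T cell markers, 5 of 6 B cell markers tested, 2 of 2 dendritic cell markers tested and 6 of 10 macrophage and monocyte markers tested, with none at an unadjusted p under 0.05 by edgeR. The part of these cells in the class II levels was not tested.

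Upstream of *Ciita*, *Ifng*, the interferon gamma gene, had 0 to 5 reads in WT mice and 0, 2, 7 and 26 reads in KO mice 1 to 4, too few for the test, and the mouse with 26 reads is the one with the highest class II level. *Irf1*, a transcription factor induced by interferon, had a log2 fold change of 0.26 (SE 0.10, unadjusted p = 0.0211, adjusted p = 0.9995, edgeR). All 7 tested genes of the 8 on the path from interferon gamma to *Ciita* had a fold change above 0, with a median of 0.13, and *Irf1* was the only one with p under 0.05.

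Other genes of the class II pathway, among them chains of H2-O, endosomal proteases and promoter factors, were read from a fixed list. Of 23 listed, 21 were found and 18 tested, 10 of these with a fold change above 0 and a median of 0.02. *Ctse*, cathepsin E, was estimated lower in KO mice (log2 fold change -0.58, SE 0.25, unadjusted p = 0.0437, adjusted p = 0.9995, edgeR quasi-likelihood test), and the other 17 had an unadjusted p above 0.05. *Rfx5*, *Rfxap* and *Rfxank*, which encode the RFX complex on the X box, had fold changes of -0.11, 0.14 and 0.04. *H2-Ob*, a chain of the H2-DM antagonist H2-O made mostly by B cells, had 0.92 (SE 0.66) on 1.23 and 2.36 CPM.

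MHC class I presents peptides to CD8+ T cells and is also inducible by interferon. Of its 14 genes, 11 had a fold change above 0 (median 0.43) and 5 an unadjusted p under 0.05 by edgeR, none after adjustment: *B2m*, *Tap1*, *Tap2*, *Psmb8* and *Psmb9*. *Psmb9*, an immunoproteasome subunit, had 28.8 to 35.0 CPM in WT and 36.0 to 77.1 CPM in KO mice, and *Tap2*, a subunit of the peptide transporter, 24.5 to 36.0 CPM and 36.2 to 52.7 CPM, both without overlap, where 1.11% of all genes had KO mice higher without overlap. *Nlrc5*, the class I counterpart of *Ciita*, had a log2 fold change of 1.23 (SE 0.55, unadjusted p = 0.0555).

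After DSS, where the choice of genes used the data, *H2-Eb1* had 38, 46.8 and 38.8 CPM in WT mice and 109, 67.9 and 83.0 CPM in KO mice. The gap between the highest WT and the lowest KO mouse was thus from 46.8 to 67.9 CPM. The log2 fold change was 1.07 (SE 0.17), and 0.87 to 1.22 with each mouse left out. *H2-Ab1* had 66.8, 96.1 and 102 CPM in WT mice and 176, 112 and 146 CPM in KO mice, which did not overlap either, though the gap was narrow, from 102 to 112 CPM. Its log2 fold change was 0.71 (SE 0.21), and with counts scaled by the total alone, a choice made after the data were seen, its genotypes overlapped. *H2-Aa* had 43.3, 116 and 83.3 CPM in WT mice and 166, 94.2 and 130 CPM in KO mice, which overlap because WT mouse 2 exceeded KO mouse 2. The mouse numbers here are those of the table's columns, and column numbers could be matched to a genotype but not to a labelled mouse.

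KO mice were thus higher without overlap for 2 of 9 genes, in the comparison that chose them, and 5.32% of the 14908 genes tested were so. The count was 4 without WT mouse 2 or 3 and 6 without KO mouse 2. The share of 5.32% is for all mice, and none is given with a mouse left out. Smaller groups separate more easily, so these counts have no background to be read against. *Cd74* had 242, 473 and 548 CPM in WT mice and 722, 462 and 598 CPM in KO mice (log2 fold change 0.50, SE 0.31). *H2-DMb1* had 14.9, 25.0 and 19.2 CPM against 37.0, 21.6 and 37.3 CPM (0.70, SE 0.26), and *H2-DMa* 12.2 to 23.5 CPM against 16.5 to 25.3 CPM (0.34, SE 0.26). *Ciita* had 4.81, 10.03 and 15.2 CPM in WT mice and 12.2, 10.9 and 15.1 CPM in KO mice (0.35, SE 0.38). WT mouse 1 was the lowest of its group for all of these genes. With each mouse left out, the log2 fold change ranged from 0.01 (without WT mouse 1) to 0.78 (without WT mouse 3) for *Ciita*, from 0.22 to 0.73 for *Cd74* and from 0.13 to 0.61 for *H2-DMa* without the same mice, from 0.38 (without WT mouse 1) to 1.03 (without WT mouse 2) for *H2-Aa*, and from 0.53 (without WT mouse 1) to 0.92 (without KO mouse 2) for *H2-DMb1*. *Ctss* ranged from 263 to 339 CPM in WT against 261 to 293 CPM in KO mice (-0.12, SE 0.12).

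*H2-DMb2* had a negative fold change after DSS, which rested on 1 mouse. It had 0.167, 0.376 and 7.91 CPM (4, 9 and 167 reads) in WT mice and 0.72, 0.636 and 0.499 CPM in KO mice. The log2 fold change was -2.17 (SE 1.47) with all mice and 1.16 without WT mouse 3. That mouse also had the most B cell marker transcripts of the 6, with a summed level of 12 CPM over 12 markers against 1.91 to 3.34 CPM in the other 5 mice. Without DSS, KO mouse 3 had the least of both among KO mice, with 0.697 CPM of *H2-DMb2* and a B cell level of -1.03 in mean log2 CPM, against -0.42 to 1.26 in the other 3. WT mouse 4 had the least of both among WT mice, with 0.612 CPM and -0.47. The order did not hold throughout: KO mouse 1 had the most *H2-DMb2* of the untreated mice (5.53 CPM) at a B cell level of -0.42, and KO mouse 4 the highest B cell level (1.26) with 4.01 CPM. The part of B cells in the level of *H2-DMb2* was not tested.

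**Figure D3:**
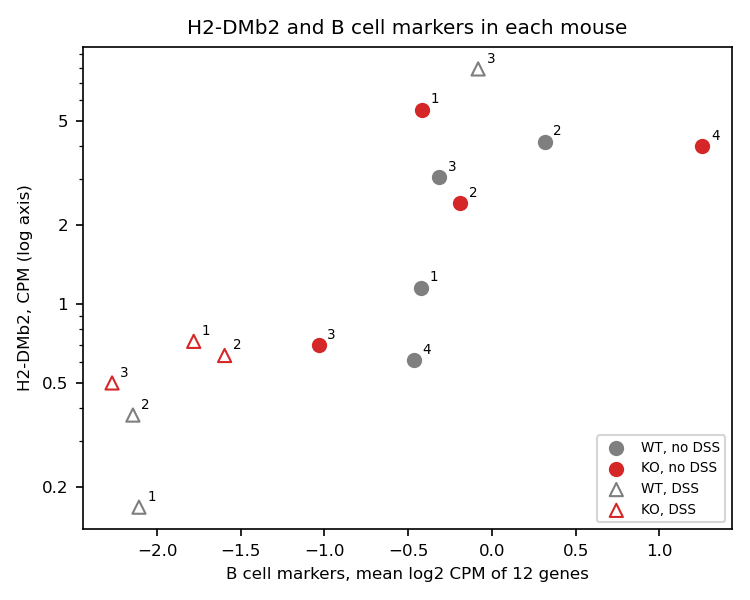
Level of *H2-DMb2* in each mouse (CPM, log axis) against the mean log2 CPM of 12 B cell markers, for WT (grey) and KO (red) mice without DSS (filled circles) and after DSS (open triangles), with mouse numbers beside the points. WT mouse 3 after DSS stands apart from the other 5 DSS mice on both axes.

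The log2 fold change of T cell markers after DSS was above 0 for 9 of 9, with a median of 0.59, where it was above 0 for 49% of all genes and for 7 of the 9 class II genes. Their summed level was 42.1 to 83.1 CPM in WT and 60.9 to 146 CPM in KO mice. Macrophage and monocyte markers summed to 96.2 to 116 CPM and 113 to 138 CPM, again mostly *Cd14* (mean 71.6 and 83.7 CPM), and dendritic cell markers to 2.59 to 6.49 CPM and 4.03 to 9.56 CPM, with up to 4 of 10 at 0. *Ifng* had 14, 10 and 11 reads in WT mice and 26, 17 and 14 reads in KO mice. The part of any of these in the class II levels was not tested. The MHC class I genes had a median log2 fold change of 0.06 over 14 genes, and none was without overlap. Of 16 other class II pathway genes tested, *Ifi30*, a thiol reductase of the endosome, was higher in KO mice without overlap (90.7 to 92.7 against 112 to 128 CPM), and *Ctse* lower (35.7 to 56.4 against 19.4 to 29.2 CPM), where 6.29% of all genes were lower without overlap.

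**Figure D4:**
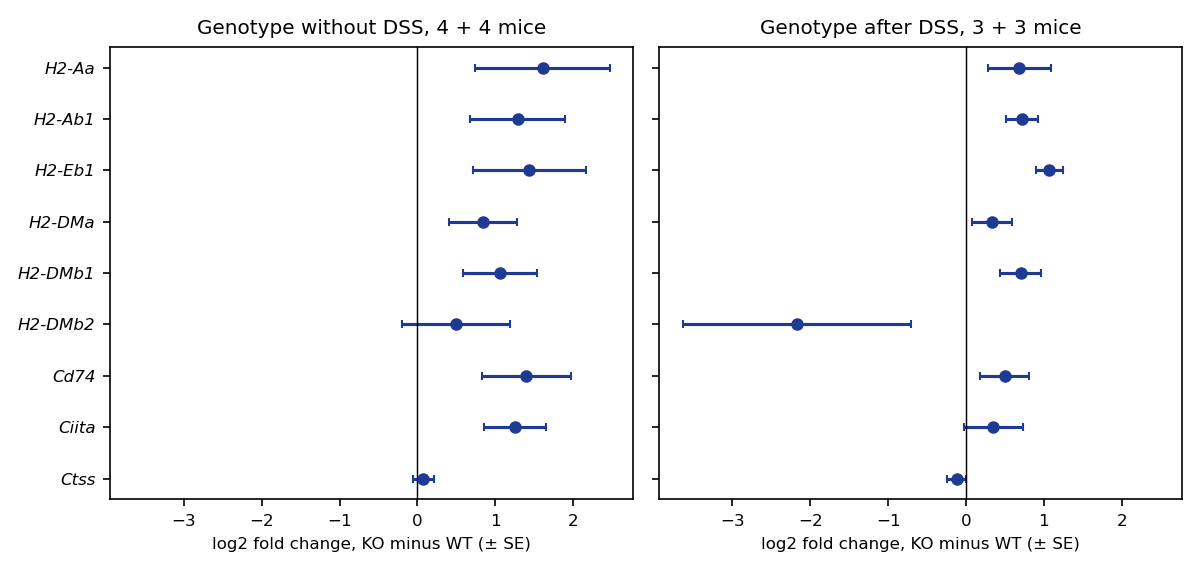
Log2 fold change of each MHC class II gene, KO minus WT, with its standard error as horizontal bars, without DSS (4 mice per genotype) and after DSS (3 per genotype). All 9 lie above 0 without DSS with wide errors, and after DSS *H2-Eb1* has the largest value at 1.07 while *H2-DMb2* lies at -2.17.

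The level of class II after DSS was compared with that in the untreated experiment as the mean of both genotypes, in 1 fit over 14 mice and 16370 genes. DSS and experiment cannot be told apart in this comparison, and the tables were made with different gene models: *Ciita* and *Ctss* have the same length in both and the other 7 genes do not. Some other genes differ far more between the tables: *Ifi30*, with one length in both, had 5 to 12 reads in each untreated mouse and 1913 to 3082 reads in each DSS mouse, and DSS and counting cannot be told apart there.

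With these limits, 8 of 9 class II genes were higher after DSS at an adjusted p under 0.05 (edgeR), where 28.7% of all genes were higher and 29.5% lower. The 8 include *H2-Eb1*, whose values after DSS chose the genes, so its part in the count is a description. *Cd74* rose by 2.12 on the log2 scale (SE 0.38, edgeR adjusted p = 0.000573), *H2-Aa* by 2.36 (SE 0.55, adjusted p = 0.00338) and *H2-Ab1* by 1.71 (SE 0.38, adjusted p = 0.00268). The estimate for *H2-Eb1* was 1.56 (SE 0.44), with no test read from it. Of the genes with one length, *Ctss* rose from 105 to 159 CPM over untreated mice to 261 to 339 CPM, without overlap (1.44, SE 0.10, adjusted p = 2.82e-08). *Ciita* rose by 0.90 (SE 0.30, edgeR adjusted p = 0.0204). Its call was lost without WT mouse 3 of the DSS experiment (0.69, adjusted p = 0.0662) and with no filter on low counts (0.90, adjusted p = 0.0632).

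*H2-DMa* and *H2-DMb1* rose by 1.33 and 1.28 (adjusted p = 0.0017 and 0.00399, edgeR). *H2-DMb2* had a log2 fold change of -0.72 (SE 0.79, adjusted p = 0.458), and without WT mouse 3 of the DSS experiment it was lower after DSS (-2.38, adjusted p = 0.00386). *H2-Ob* fell by 2.24 and *H2-Eb2*, a second E beta gene, fell by 1.32. Both had shorter gene models in the DSS table (3153 against 5380 bases and 2209 against 3392 bases). They failed the filter on low counts among DSS mice alone, so they entered this fit through the untreated mice. Their fall is therefore a description, with no test. Among B cell markers, 7 of 12 were lower and none higher by edgeR. Of these markers only 2 passed the filter among DSS mice alone and 6 among untreated mice, so this count is a description. Macrophage and monocyte markers were higher for 8 of 13 tested and lower for none, and T cell markers for 0 of 9 in either direction. Among untreated mice alone 10 macrophage and monocyte markers passed the filter, so some entered through the DSS mice and their count is a description. Over all genes, 28.7% were higher and 29.5% lower. Epithelial markers were higher for 11 of 11, with a median log2 fold change of 0.90 and *Muc2*, the main mucin gene, at 6.40, where DSS and counting cannot be told apart either, and the part of any of these cells in the rise of the class II genes was not tested.

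Within WT mice alone, *H2-Eb1* differed by 1.74 (SE 0.63) and within KO mice by 1.39 (SE 0.62), and *Ciita* by 1.35 (SE 0.43) and 0.46 (SE 0.42). The genotype difference after DSS minus that without was below 0 for 9 of 9 genes, from -0.18 (SE 0.20) for *Ctss* to -2.66 (SE 1.58) for *H2-DMb2*, with -0.35 (SE 0.89) for *H2-Eb1*. It was not tested because it contains the comparison that chose the genes. No share over all genes is given for this difference, so the count of 9 has no background to be read against. Some of these signs rest on single mice: without untreated KO mouse 4 the difference without DSS was 0.66 for *H2-Eb1*, 0.70 for *H2-Ab1* and 0.68 for *H2-DMb1*, below the 1.07, 0.71 and 0.70 after DSS, and without WT mouse 3 of the DSS experiment *H2-DMb2* had 1.16 after DSS.

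Of 19 other class II pathway genes tested, 9 were higher and 5 lower after DSS at an adjusted p under 0.05. Over all genes 28.7% were higher and 29.5% lower, the shares to set beside each count in this paragraph. The 5 include *H2-Ob* and *H2-Eb2*, which entered the fit through the untreated mice. The 9 include *Ifi30* (7.69) and *Nfya* (3.26, 15 to 116 reads in untreated and 465 to 649 reads in DSS mice), for which DSS and counting cannot be told apart. *Lgmn*, the endosomal protease legumain, rose by 1.03, *Ctsl*, cathepsin L, by 0.92 and *Ctsb*, cathepsin B, by 0.81 (adjusted p = 2.32e-05, 9.94e-05 and 1.93e-07, edgeR), while *Rfx5* fell by 0.53 (adjusted p = 0.000999). On the interferon gamma path, 4 of 8 genes were higher, among them *Irf1* by 1.13 and *Ifngr1* by 0.95. *Ifng* is not among the 4. It passed the filter only through the DSS mice, so its 1.53 (SE 0.65) is a description, with no test read from it. MHC class I was higher for 11 of 14 genes, with a median of 0.86, against 1.44 for the class II genes.

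**Figure D5:**
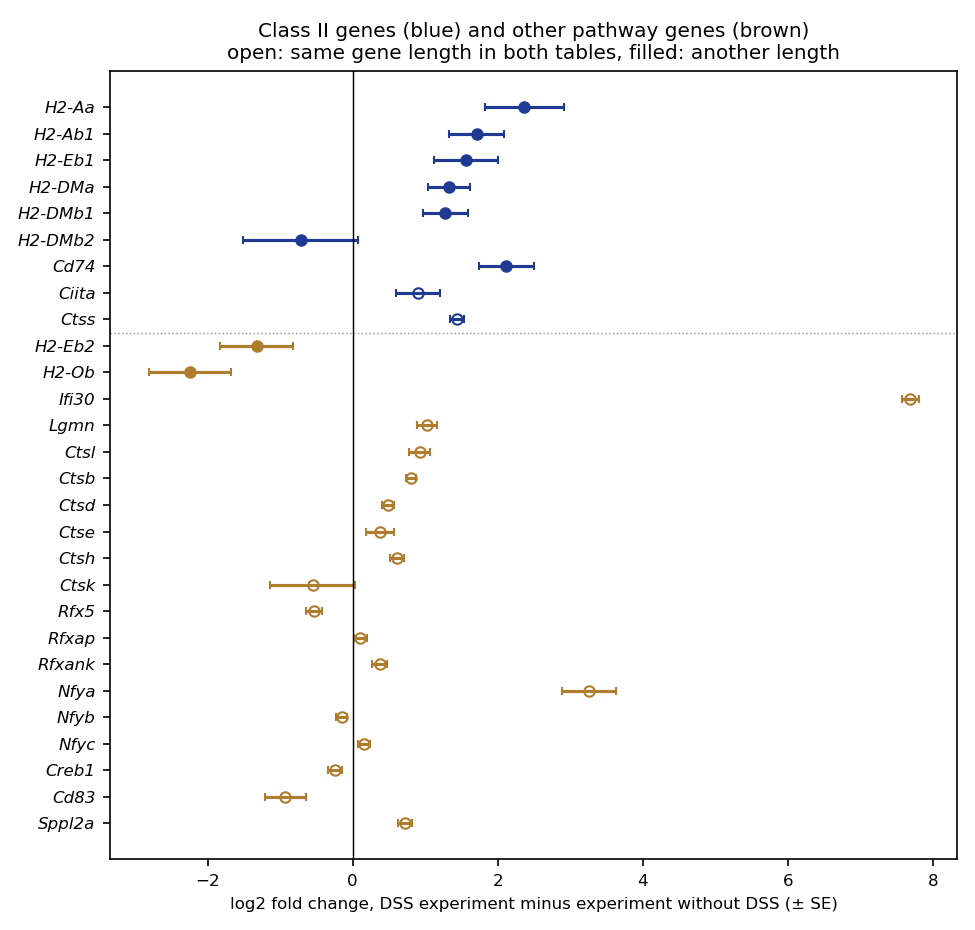
Log2 fold change of the DSS experiment over the experiment without DSS, mean of both genotypes with standard errors as bars, for the 9 MHC class II genes (blue) and 19 other class II pathway genes (brown), with open points for genes of one length in both tables and filled points for genes whose length differs. Of the class II genes, 8 lie above 0, *H2-DMb2* below with a wide error, and *Ifi30* far to the right at 7.69.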

How the data were processed

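Colon RNA of 14 mice was sequenced in 2 experiments. Each of the tables deposited by the authors holds raw read counts by gene, FPKM values, gene lengths and their own comparison (fold changes and p-values). FPKM and comparison columns were not used. The submitters' processing notes name HISAT2 and DESeq2. The annotation, the counting tool and the use of strand are not given in the sources used here, and the library kit is directional. Of gene identifiers in GENCODE vM21 (GRCm38), 99.47% without DSS and 98.33% after DSS have the same start and end there. Of the 9 class II genes, 9 do without DSS but only 3 after DSS. The gene positions given above are those used without DSS. The study excluded 1 WT and 1 KO sample, which are not analysed here. Titles number the samples as mice, and p-values measure the spread between these samples. Column numbers after DSS match no title number, so those columns were matched to a group only.

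Counts were filtered with filterByExpr (minimum count 10, minimum total 15), scaled by TMM and tested with glmQLFit (robust) and glmQLFTest of edgeR 4.0.16 in R 4.3.3, with Benjamini-Hochberg adjustment over all genes tested. Log2 CPM used a prior count of 2. Relations over untreated mice used two-sided exact permutation in Python 3.11.15, adjusted over 6 relations. The joint fit used 54378 genes of both tables, with 1 coefficient per group. Each mouse left out, DESeq2 1.42.0, RLE size factors, no filter, the replicate number as a block, a prior count of 0.5 and subtracted genotype means were tried. Fits were also run on simulated data, and no result of that is given here. Sequences are from RefSeq (GRCm38.p6) and GENCODE vM21.

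The members and lists were chosen with earlier results of these data known. Named are the 9 genes, genes of the fixed lists where a count or level is given, and the 5 genes closest to *H2-Eb1* and to *H2-Ab1* by Pearson's r in each experiment. Of 23 listed pathway genes, *Marchf1* and *Marchf8* were not matched by name. *Lncpint*, *Mir29a* and *Mir29b-1* were added as a check of genotype. Another gene of the interferon gamma list enters its counts and median, and its own values are not reported here.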

Additional observations from a re-analysis of the deposited data

How the results depend on the processing

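The number of class II genes with an unadjusted p under 0.05 between untreated genotypes was 2 by edgeR, 5 by DESeq2 and 1 with no filter on low counts, and ranged from 1 to 7 with each mouse left out, while 0 passed adjustment in all of these. With RLE size factors it was 2. Over all genes tested, in either direction, 566 of 15441 had such a p by edgeR and 798 of 29534 by DESeq2. It was 1099 of 29573 with no filter, 569 of 15441 with RLE size factors and 543 of 15441 with the block described next. With a mouse left out it ranged from 479 of 15617 (WT mouse 3) to 692 of 15777 (KO mouse 3). The replicate number as a block left 1 of 9, *Ciita*, at an unadjusted edgeR p of 0.0327, with *Cd74* at 0.134. Mice of one number correlated in their deviations by -0.03, 0.15, -0.19 and -0.13, so the numbers were not taken as pairs. No paired analysis was possible because the count columns after DSS carry no label number, for the comparisons that use them. After DSS, genotypes did not overlap for 2 genes, from 2 to 6 with each mouse left out, and for 1 (*H2-Eb1*) with total counts in place of TMM, an alternative chosen after seeing the data. No share over all genes is given with a mouse left out or with total counts, so those counts have no background to be read against. The median log2 fold change of the 9 genes after DSS was 0.50, from 0.22 to 0.73 with each mouse left out. Between experiments, 8 of 9 genes were higher after adjustment by edgeR, and 7 with no filter (*Ciita* adjusted p = 0.0632) and without WT mouse 3 after DSS. These counts include *H2-Eb1*, whose values after DSS chose the genes. With a prior count of 0.5 or genotype means subtracted, r between the class II level and marker lists or *Ciita* in untreated mice kept its sign. Depth limits *Ifng*, *H2-DMb2* and the dendritic cell markers, which had few reads in most mice.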

Other observations

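*H2-Eb1* was read against *H2-Ab1* within each mouse, a ratio that does not depend on library size and was chosen after its values were seen. After DSS, reads on *H2-Eb1* were 0.569, 0.487 and 0.381 of those on *H2-Ab1* in WT mice and 0.615, 0.608 and 0.567 in KO mice, so that KO mouse 3 lay just below WT mouse 1. Without DSS the ratio was 0.394 to 0.663 in WT mice and 0.515 to 0.691 in KO mice. The ratio of *Cd74* to *H2-Ab1* was 3.63 to 5.38 in WT and 4.09 to 4.14 in KO mice after DSS.

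Leaving out the 9 class II genes themselves, the genes whose log2 CPM followed *H2-Eb1* most closely over the 8 untreated mice, by Pearson's r, were *Cd274* (0.96), *Mfng*, *Rab19*, *Psmf1* and *Cxcl9* (0.95 each). Outside the 9 genes, those closest to *H2-Ab1* were *Rbks* (0.99), *Cxcl9* and *Rab19* (0.97 each), *Mfng* and *Psme1* (0.95 each). Over the 6 mice after DSS the lists held other names: *Podnl1*, *Eml2*, *Cetn3*, *Pus7l* and *Ndufaf2* for *H2-Eb1* (0.97 to 0.99), and *Arl16*, *Gpr155*, *Ada*, *Gm17383* and *Gm12166* for *H2-Ab1* (0.98 to 0.99).

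Group 3 innate lymphoid cells, which can carry class II in the gut, were read from 6 markers. After DSS 3 of them passed the filter on low counts, all 3 with a log2 fold change below 0 (median -0.37) and 1 without overlap of genotypes, where 6.29% of all genes were lower in KO mice without overlap and 49% had a fold change above 0, and the 6 summed to 103 to 126 CPM in WT against 73.8 to 119 CPM in KO mice. Without DSS the sums were 165 to 327 CPM and 209 to 337 CPM, and no part of these cells in the class II levels was tested.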
